A study of Mus musculus with 4 samples.

Results

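The acid-secreting stomach moves chloride, bicarbonate, sodium and water through a set of membrane proteins that stand beside the proton pump. The 9 genes described here encode such proteins: the anion transporters *Slc26a9* and *Slc26a7*, the anion exchanger *Slc4a2*, the sodium-bicarbonate cotransporter *Slc4a4*, the sodium-proton exchangers *Slc9a2* and *Slc9a4*, the cation-chloride cotransporters *Slc12a2* and *Slc12a7*, and the water channel *Aqp4*. They were taken by name from 46095 gene names, with earlier results of these data known, and all 9 were among the 17643 genes that passed the filter on low counts. Total RNA of whole stomach was sequenced from C57BL/6 mice at 12 weeks of age, with 2 WT and 2 Atp4b-cre;MycOE samples analysed here, although the series' own description speaks of triplicates. According to the methods of the study, the transgenic mice are Atp4b-cre; Myc fl/+, in which a floxed *c-Myc* transgene is turned on wherever Cre recombinase has been made, that is in cells of the parietal lineage, under the *Atp4b* promoter. The WT mice are Myc fl/fl littermates, which carry the floxed transgene without Cre. The Cre acts in the parietal lineage, whereas the RNA came from all cells of the stomach.

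Parietal cells secrete hydrochloric acid by exchanging protons for potassium at the apical membrane, while chloride leaves through apical channels. For each proton secreted a bicarbonate ion is left in the cytoplasm, and it leaves across the basolateral membrane in exchange for chloride. This exchange supplies the chloride that is secreted. Sodium-proton exchangers and sodium-dependent cotransporters of the basolateral membrane regulate cell pH and volume, and surface mucous cells use related proteins to secrete bicarbonate.

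Names and counts had to be brought into register before any comparison. In the deposited table the genotype means of log2(count + 1) correlated across genes at r = 0.524, whereas the pair of WT samples gave 0.986 and the transgenic pair 0.983. The transgenic columns were therefore laid, row by row, against the same names in character-code order (capitals before lower case), which raised r between the genotypes to 0.985. Genes are not independent replicates, so these values are descriptions. Around each of the 9 transporters the re-sorted table gave r between 0.939 and 0.978 over 61 rows, and the deposited table gave -0.147 to 0.087. A shift of 0 rows gave the highest r for 9 of 9 genes among shifts of up to 10 rows, and the highest r at any other shift was 0.503. Transporters of the same family lie close together in this order and share most of their rows, so the 9 values are not separate. All values below are from the re-sorted table unless the deposited order is named.

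**Figure D1:**
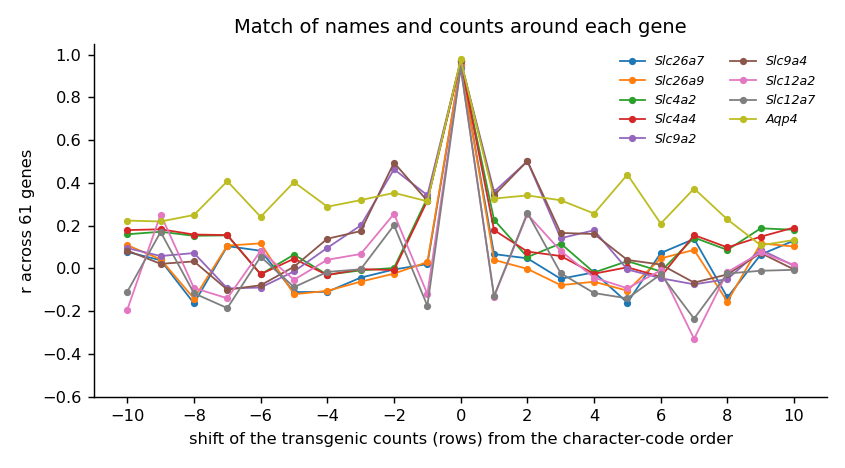
Pearson's r between the genotypes over the 61 genes around each transporter (y axis), against the number of rows by which the transgenic counts were moved from the character-code order (x axis), with 1 line per gene. All 9 lines peak at a shift of 0 rows, between 0.939 and 0.978, and no other shift exceeds 0.503.

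The samples held 30260305 to 41463647 counts, so that 3 counts, the limit that a count of 0 allows, corresponded to 0.0672 to 0.108 CPM (counts after scaling for depth). This limit covers counting error only. For mouse *Myc* the WT samples had 1062 and 759 counts, against 735 and 1091 in the transgenic samples (log2 fold change -0.35, adjusted p = 0.163, edgeR). The table has no row named for the human transgene, so the genotype labels could not be checked on it. *Xist* had 17846 counts in WT replicate 2 and 85 to 201 in the other samples, and the Y-linked *Ddx3y* had 5 there and 1861 to 2623 elsewhere, so WT replicate 2 stood apart in the sex that these genes mark. Genes were called in edgeR's quasi-likelihood test where the adjusted p was below 0.05 and the levels differed by more than 1.5-fold, the thresholds of the study. The labels do not say which animals the samples came from, so the p-values measure the spread between these samples. A fall in bulk tissue cannot be divided into fewer cells of a type and less RNA per cell.

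Of the 9 transporters, 6 were called lower in transgenic stomachs and 0 were called higher, where 5.08% of all tested genes were called lower and 5.65% higher. The 6 were *Aqp4*, *Slc26a9*, *Slc26a7*, *Slc4a2*, *Slc9a2* and *Slc9a4*. Both transgenic samples lay under both WT samples for 8 of the 9 genes, which held for 31.5% of all tested genes. The median log2 fold change was -1.11 over the 9 transporters and 0.01 over all tested genes. The fold changes spanned a wide range, from *Aqp4* at -3.86, with 0.657% of tested genes lower still, to *Slc4a4* at -0.01, with 48.2% of tested genes below it. The remaining genes lay in between, at 0.697% for *Slc26a9*, 0.907% for *Slc26a7*, 3.59% for *Slc4a2*, 9.19% for *Slc9a2*, 15.6% for *Slc9a4*, 18.9% for *Slc12a2* and 32.3% for *Slc12a7*.

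**Figure D2:**
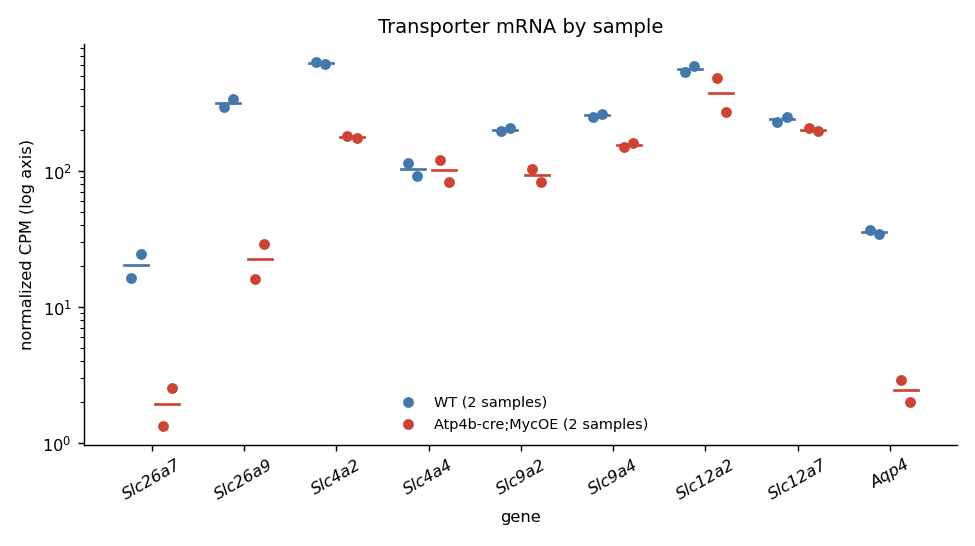
Normalized CPM of each transporter in every sample (y axis, log scale), with 2 WT and 2 Atp4b-cre;MycOE samples per gene. The groups overlap for *Slc4a4* alone, and the widest gaps are those of *Slc26a7*, *Slc26a9* and *Aqp4*.

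*Slc26a9* (chr1:131744022-131771504, plus strand, GRCm38) encodes a chloride channel and transporter of gastric surface and parietal cells. Its normalized level was 296 and 336 CPM in WT replicates 1 and 2, and 16.0 and 29.1 CPM in transgenic replicates 1 and 2. Both transgenic samples lay far under both WT samples, and the mean fell from 316 ± 28.2 to 22.5 ± 9.28 CPM (SD, n = 2 each), or to 7.12% of WT. The log2 fold change was -3.81 with an SE of 0.34 and a 95% interval of -4.72 to -2.90 (adjusted p = 0.0188, edgeR). The summed markers of surface mucous cells were 44889 and 53560 CPM in WT and 10957 and 17193 CPM in transgenic replicates 1 and 2. Both *Slc26a9* and this sum were lower in transgenic replicate 1 than in replicate 2. So were the sums of parietal cell markers (366 and 400 CPM) and chief cell markers (1198 and 1518 CPM), among others. The sums of mucous neck, endocrine, small intestine, leukocyte and proliferation markers were higher in transgenic replicate 1. The part of any of these cell types in the result was not tested.

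*Slc26a7* (chr4:14502430-14621805, minus strand) encodes an anion exchanger found on the basolateral membrane of parietal cells. It was the least abundant of the 9 genes per length in both WT samples and in transgenic replicate 1, but not in transgenic replicate 2. Its counts were 546 and 680 in the WT pair against 45 and 114 in the transgenic pair. After normalization these were 16.3 and 24.4 CPM in WT and 1.33 and 2.55 CPM in the transgenic samples, and the groups did not overlap. The mean fell from 20.3 ± 5.73 to 1.94 ± 0.866 CPM, a level 10.4-fold lower. The log2 fold change was -3.38 (SE 0.43, 95% interval -4.53 to -2.23, adjusted p = 0.0253, edgeR).

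*Slc4a2* (chr5:24423837-24440950, plus strand) encodes anion exchanger 2, which exchanges chloride for bicarbonate across the basolateral membrane of parietal cells. Per length it was the most abundant of the 9 genes in WT, and its level was 629.7 and 611 CPM, and stood at 182 and 175 CPM in the transgenic samples. Replicates of each genotype were close to each other. The mean fell from 620.5 ± 13.0 to 178 ± 4.54 CPM, or to 28.8% of WT, with a log2 fold change of -1.80 (SE 0.08, 95% interval -2.03 to -1.57, adjusted p = 0.00975, edgeR). The exons of *Slc4a2* overlap those of genes on the minus strand over 1242 bases, 14.9% of its exon length, mainly with *Fastk*. Whether reads were counted by strand is not stated in the sources used here. *Fastk* itself was at 59.8 ± 1.39 CPM in WT and 59.2 ± 0.699 CPM in transgenic stomachs.

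*Slc4a4* (chr5:88886818-89239653, plus strand) encodes the electrogenic sodium-bicarbonate cotransporter NBCe1, which loads epithelial cells with bicarbonate. It had 114 and 92.2 CPM in WT and 121 and 83.0 CPM in transgenic samples, and transgenic replicate 1 was the highest and replicate 2 the lowest of the 4. The means were 103 ± 15.1 and 102 ± 26.9 CPM. The log2 fold change was -0.01 (SE 0.22, adjusted p = 0.974, edgeR), with a 95% interval from -0.61 to 0.58. Its sign turned to 0.21 when library size was used without scaling factors, so no direction is given for this gene.

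**Figure D3:**
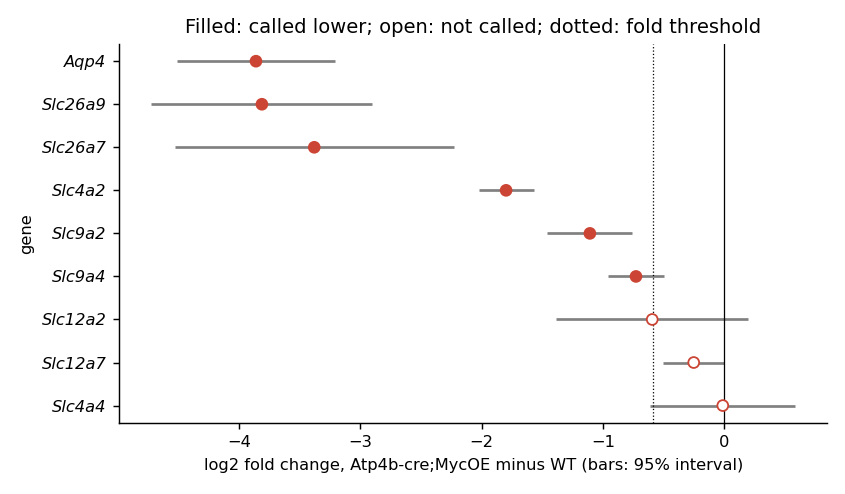
Log2 fold change of each transporter, Atp4b-cre;MycOE minus WT (x axis), with bars for the 95% interval of the edgeR fit and genes on the y axis. The dotted line marks the 1.5-fold threshold, the intervals of the 6 called genes lie wholly under 0, and those of *Slc4a4* and *Slc12a2* include 0.

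Promoter sequences were read for genes that differed widely in response, from RefSeq (GRCm38.p6), over 250 bases before to 50 bases after a start site. *Slc4a2* and *Slc12a7* have 2 start sites each in these tables, and the first listed is shown. A set of 4 motifs was searched on both strands: the E-box CACGTG bound by MYC and MAX, the half-site AAGGTCA of estrogen-related receptors, the TATA box TATAAA and the GC box GGGCGG. Capitals mark the matches. The E-box was found in 7.15%, the half-site in 4.72%, the TATA box in 13.6% and the GC box in 35.7% of 32851 RefSeq promoters of this length. The sequences are those of *Slc26a9* (chr1:131743772-131744071, plus strand), 14.0-fold lower in transgenic stomachs, of *Slc4a2* (chr5:24424982-24425281, plus strand), 3.48-fold lower, and of *Slc12a7* (chr13:73763410-73763709, plus strand), which was not called.
Slc26a9: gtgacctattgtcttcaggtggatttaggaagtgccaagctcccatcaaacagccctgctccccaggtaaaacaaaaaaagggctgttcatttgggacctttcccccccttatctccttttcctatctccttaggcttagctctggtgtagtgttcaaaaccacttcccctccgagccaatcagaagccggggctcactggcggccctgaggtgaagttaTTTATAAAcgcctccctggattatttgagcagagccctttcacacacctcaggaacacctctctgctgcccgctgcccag
Slc4a2: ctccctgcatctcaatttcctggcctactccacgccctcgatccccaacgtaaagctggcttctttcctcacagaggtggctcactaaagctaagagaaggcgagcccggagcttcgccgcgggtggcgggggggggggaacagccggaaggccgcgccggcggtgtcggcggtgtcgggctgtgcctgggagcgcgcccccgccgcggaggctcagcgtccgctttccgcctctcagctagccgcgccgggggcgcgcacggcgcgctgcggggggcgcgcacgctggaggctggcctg
Slc12a7: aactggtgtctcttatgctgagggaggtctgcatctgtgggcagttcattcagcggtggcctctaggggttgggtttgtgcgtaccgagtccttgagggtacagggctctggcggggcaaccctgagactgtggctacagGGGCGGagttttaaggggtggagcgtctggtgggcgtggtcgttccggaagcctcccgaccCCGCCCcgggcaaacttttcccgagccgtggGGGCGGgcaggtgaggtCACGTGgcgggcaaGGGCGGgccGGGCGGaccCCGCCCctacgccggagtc
The window of *Slc26a9* held 2 overlapping matches to the TATA box, on opposite strands, and none of the other motifs. That of *Slc4a2* held 0 matches to any of the 4. That of *Slc12a7* held 1 E-box beside this start site and 6 GC boxes, and the window of its second start site, which overlaps the first, held the same numbers. For *Slc4a4*, the gene with the smallest change, neither of 2 windows held an E-box, and 1 GC box was found in the first and 0 in the second. None of these windows held the receptor half-site, which only 4.72% of all promoters held. The receptor gene *Esrrg* itself fell from 187 ± 15.3 to 11.6 ± 1.35 CPM (log2 fold change -4.01, adjusted p = 0.00635, edgeR). A link between *Esrrg* and the transporters was not tested. A match is a description of the letters and not of binding.

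The sodium-proton exchangers fell less than the anion transporters of the SLC26 family in fitted value, although this difference between genes was not tested. *Slc9a2* (chr1:40680574-40769273, plus strand) encodes NHE2, a sodium-proton exchanger of gastric and intestinal epithelium. It had 195 and 205 CPM in WT and 103 and 83.1 CPM in transgenic samples. All transgenic values lay under all WT values, and the mean fell from 200.2 ± 7.10 to 92.9 ± 13.9 CPM, or to 46.4% of WT (log2 fold change -1.11, SE 0.13, 95% interval -1.46 to -0.76, adjusted p = 0.0232, edgeR). With the replicate numbers as a block, *Slc9a2* was not called (adjusted p = 0.0582, edgeR).

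*Slc9a4* (chr1:40580081-40630725, plus strand) encodes NHE4, the basolateral exchanger of parietal cells, and lies upstream of *Slc9a2* on the same strand. It had 248 and 264 CPM in WT and 150.0 and 159 CPM in the transgenic samples. The groups were apart by more than the spread within either, and the mean fell from 256 ± 10.9 to 155 ± 6.46 CPM, or to 60.4% of WT. The log2 fold change was -0.73 (SE 0.09, 95% interval -0.96 to -0.50, adjusted p = 0.0232, edgeR), the smallest of the called transporters. With library size alone as the scaling it was -0.51, under the fold threshold. With the replicate numbers as a block, *Slc9a4* was not called (adjusted p = 0.0584, edgeR). Exons annotated on the minus strand, of *Gm35801* and *Gm37435*, overlap 971 bases or 21.3% of its exon length, and *Gm35801* had 1 to 5 counts in each sample.

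The cation-chloride cotransporters were not called. *Slc12a2* (chr18:57878678-57946821, plus strand) encodes NKCC1, which brings sodium, potassium and chloride into epithelial cells across the basolateral membrane. It had 535 and 595 CPM in WT, and 479 and 269.9 CPM in transgenic replicates 1 and 2. Transgenic replicate 1 was near the WT samples and replicate 2 was well under them. The means were 565 ± 41.9 and 374 ± 148 CPM, with a log2 fold change of -0.59 (SE 0.29, 95% interval -1.39 to 0.20, adjusted p = 0.238, edgeR). Without transgenic replicate 1 the log2 fold change was -1.06 (adjusted p = 0.0242, edgeR) and the gene was called lower, and without transgenic replicate 2 it was -0.24. The summed markers of mucous neck cells were 25517 CPM in transgenic replicate 1 and 10701 CPM in replicate 2, with 11942 and 14843 CPM in WT. Other sums split the transgenic pair more widely, with small intestine markers at 1471 CPM in replicate 1 and 125 CPM in replicate 2, forestomach squamous markers at 1736 and 6611 CPM and skeletal muscle markers at 17.0 and 860.3 CPM. The part of any of these in the spread of *Slc12a2* was not tested.

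*Slc12a7* (chr13:73733094-73816754, plus strand) encodes KCC4, which carries potassium and chloride out of cells. It was at 228 and 251 CPM in WT and 207 and 195 CPM in transgenic samples, close in all 4 samples and without overlap between the genotypes. The mean was 239.6 ± 16.2 CPM in WT and 201 ± 8.56 CPM in transgenic stomachs. The log2 fold change of -0.25 (SE 0.09, 95% interval -0.50 to -0.002) had an adjusted p of 0.144 in edgeR.

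*Aqp4* (chr18:15389496-15410982, minus strand) encodes a water channel of the basolateral membrane of parietal cells. The WT samples had 1227 and 963 counts and the transgenic samples 99 and 89, which is 36.6 and 34.5 CPM against 2.92 and 1.99 CPM. The WT samples were close to each other and both transgenic samples were far under them. The mean fell from 35.5 ± 1.44 to 2.46 ± 0.655 CPM, or to 6.91% of WT (14.5-fold lower), with a log2 fold change of -3.86 (SE 0.24, 95% interval -4.51 to -3.21, adjusted p = 0.0133, edgeR).

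The genes whose pattern over the 4 samples was most like that of *Aqp4* were sought among 6196 genes with edgeR's average abundance, the log2 of a mean over all samples, at 5 or more, by the distance between centred log2 CPM values. The 5 nearest were *Clic6* (distance 0.162), *Pdia2* (0.265), *Esrrg* (0.598), *Gif* (0.666) and *Tmem151a* (0.680). *Clic6*, of the chloride intracellular channel family, was at 1213 and 1245 CPM in WT and 97.8 and 76.9 CPM in the transgenic samples. *Gif* encodes gastric intrinsic factor, and *Pdia2* a protein disulfide isomerase. With 4 samples, of which both WT samples are high and both transgenic samples low, many genes share this shape, and a gene can pass the abundance limit through its WT samples alone, as *Esrrg* and *Tmem151a* did.

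Leaving out either WT sample ended the calls. Without WT replicate 1 and without WT replicate 2, 0 of the 9 transporters were called, and 0 of all genes, with 6 of 9 transporters at an unadjusted p under 0.05 in both fits (edgeR). Over all 4 fits that left out a sample, the log2 fold change of *Aqp4* lay between -4.15 and -3.60, *Slc26a9* between -4.31 and -3.44, *Slc26a7* between -3.93 and -2.99 and *Slc4a2* between -1.82 and -1.77. *Slc9a2* lay between -1.27 and -0.96, *Slc9a4* between -0.77 and -0.68 and *Slc12a7* between -0.32 and -0.18. *Slc12a2* ranged from -1.06 to -0.24, and *Slc4a4* from -0.31 to 0.23, with a change of sign. In DESeq2 the same 6 of 9 transporters were called lower, beside 9.49% of the 18257 genes to which it gave an adjusted p.

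Levels were compared between genes per kilobase of exon, using the gene models of GENCODE M21 on GRCm38. In WT the order of mean levels was *Slc4a2* (74.6 ± 1.56 normalized CPM per kb), *Slc26a9* (60.5 ± 5.40), *Slc9a4* (56.1 ± 2.40), *Slc12a2* (51.7 ± 3.83), *Slc9a2* (28.7 ± 1.02), *Slc12a7* (18.9 ± 1.28), *Slc4a4* (9.52 ± 1.40), *Aqp4* (5.70 ± 0.232) and *Slc26a7* (3.74 ± 1.06). The ranges of *Slc26a9* and *Slc9a4* over the WT samples overlapped, as did those of *Slc9a4* and *Slc12a2*, although each pair kept its order within both samples. In transgenic stomachs the order was led by *Slc12a2* (34.3 ± 13.5 per kb) and *Slc9a4* (33.9 ± 1.42), whose ranges overlapped, followed by *Slc4a2* (21.4 ± 0.546). Below them came *Slc12a7* (15.9 ± 0.676), *Slc9a2* (13.3 ± 1.98), *Slc4a4* (9.43 ± 2.49) and *Slc26a9* (4.31 ± 1.78). *Aqp4* (0.394 ± 0.105) and *Slc26a7* (0.357 ± 0.160) were last, also with overlapping ranges. *Slc26a9* therefore moved from rank 2 to rank 7 and *Slc4a2* from rank 1 to rank 3.

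**Figure D4:**
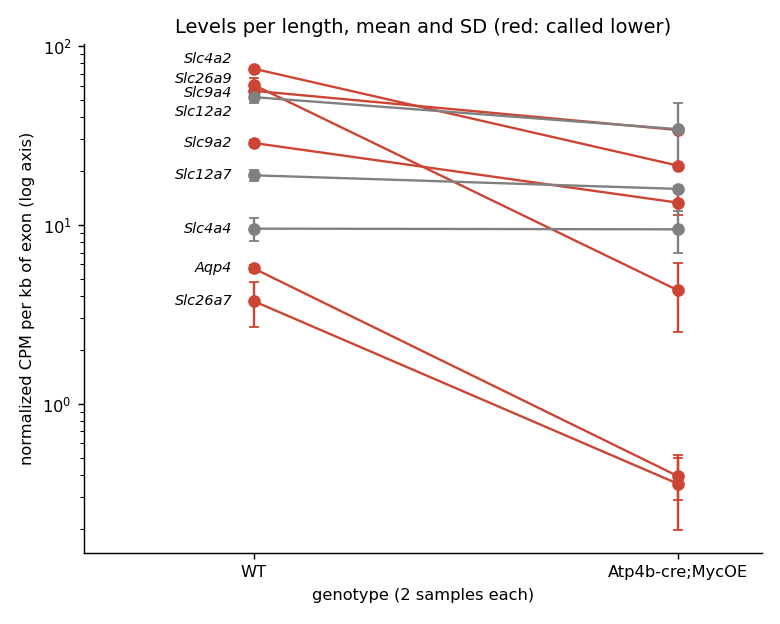
Normalized CPM per kilobase of exon (y axis, log scale) of each transporter in WT and Atp4b-cre;MycOE stomachs, with points for the mean and bars for the SD of 2 samples, red for genes called lower and grey for genes not called. *Slc26a9* falls from rank 2 to rank 7, whereas *Slc4a4* stays at 9.52 and 9.43.

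The other members of the same families were not called. Tested were 5 other SLC26 genes, 6 other SLC4, 8 other SLC9 and 5 other SLC12 genes, and 7 other aquaporins. In each family 0 were called in either direction by edgeR, where 5.08% of all tested genes were called lower and 5.65% higher. Beside those shares, counts of 0 among so few genes say little about the families. At an unadjusted p under 0.05 and the same fold, 1 other SLC9 gene was lower and 1 other SLC4 gene higher, and DESeq2 called 1 gene of these families, *Slc9a7*, lower. Their median log2 fold changes were -0.28, -0.04, -0.40, -0.34 and -0.24. *Slc26a2*, a sulfate transporter, was at 171 ± 21.2 CPM in WT and 119 ± 22.5 CPM in transgenic stomachs. Among the aquaporins *Aqp3* was at 147 ± 15.1 and 124 ± 37.4 CPM and *Aqp5* at 117 ± 12.0 and 170.3 ± 75.0 CPM, with overlapping groups for both.

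The list of the proton pump and its potassium channels held 6 genes called lower and 0 higher of 9 tested, with a median log2 fold change of -3.60. Of all tested genes 5.08% were called lower. The pump subunits fell by 5.59 (*Atp4a*) and 5.82 (*Atp4b*) on the log2 scale. The channel genes *Kcne2*, *Kcnj16*, *Kcnj15* and *Kcnq1* had log2 fold changes of -5.36, -5.96, -3.60 and -1.47. The falls of *Slc26a9*, *Slc26a7* and *Aqp4* were thus smaller in fitted value than those of both pump subunits and close to that of *Kcnj15*, which are values side by side and not a test. Of the receptors that control acid secretion, 4 of 6 tested were called lower (5 in DESeq2): the histamine receptor *Hrh2* (-5.26), the gastrin receptor *Cckbr* (-1.76), the somatostatin receptor *Sstr2* (-2.47) and the calcium-sensing receptor *Casr* (-2.14).

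Carbonic anhydrases, which supply the bicarbonate and protons, had 1 gene called higher (2 in DESeq2) and 2 called lower of 11 tested. *Car12* rose from 27.6 ± 5.06 to 85.1 ± 12.6 CPM (log2 fold change 1.63), while *Car5b* (-1.64) and *Car9* (-1.37) fell. *Car2*, the abundant cytosolic enzyme, was at 1666 ± 49.4 CPM in WT and 1349 ± 69.6 CPM in transgenic stomachs, and was not called. Of 14 chloride channel genes tested, 1 was called higher and 2 lower. In edgeR 5.65% of all tested genes were called higher and 5.08% lower, so counts this small say little about either list. The calcium-activated chloride channel *Ano1* rose from 136 ± 24.9 to 289 ± 6.21 CPM (log2 fold change 1.09, adjusted p = 0.0286, edgeR), and *Clic6* (-3.81) and *Lrrc8c* (-0.90) fell. *Cftr*, the cyclic AMP-regulated anion channel, was at 176 and 273 CPM in WT and 439.7 and 164 CPM in the transgenic samples, and the groups overlapped.

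Of 15 regulators of these transporters tested, 3 were called lower and 0 higher in edgeR, and DESeq2 called 6 lower, with *Wnk4*, *Slc9a3r1* and *Slc9a3r2* in addition. The 3 called in edgeR were *Stk39* (-0.80), the kinase that activates NKCC1, and *Chp1* (-0.86) and *Tesc* (-0.96), calcium-binding partners of sodium-proton exchangers. *Ezr*, which links apical membrane proteins to actin, was at 1322 ± 80.9 and 909 ± 92.6 CPM and was not called. Among 12 tested sodium pump genes 1 was called lower (2 in DESeq2), the auxiliary subunit *Fxyd6* (-0.81), and the subunit gene *Atp1b1* (1037 ± 5.03 and 986 ± 176 CPM) was not called. Over all of these lists together, 98 distinct genes were tested, of which 2 were called higher and 18 lower, with a median log2 fold change of -0.33. Of all tested genes, 5.65% were called higher and 5.08% lower in edgeR. Beside those shares, the 1 call among the sodium pump genes says little about that list.

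**Figure D5:**
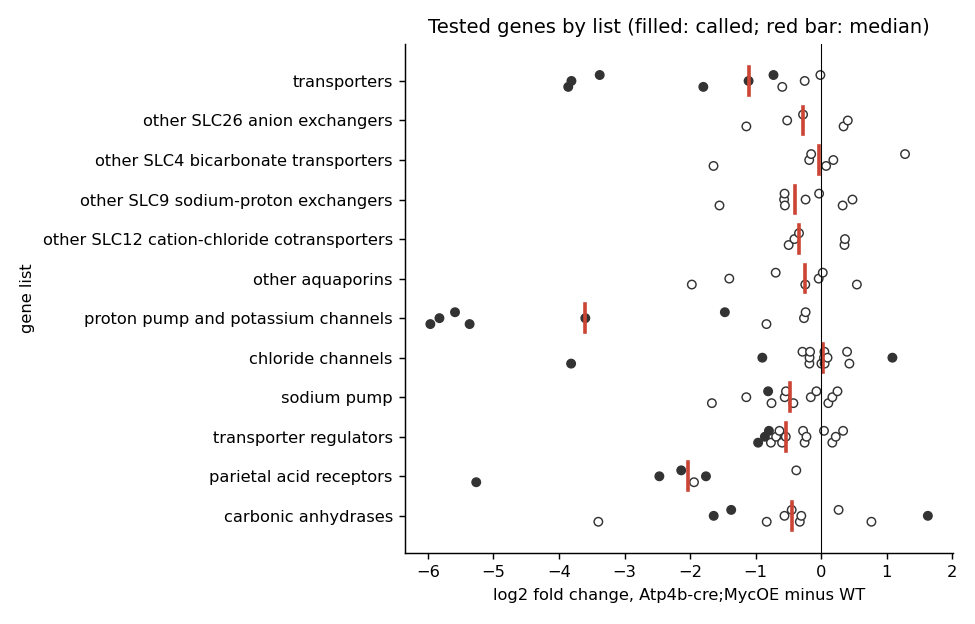
Log2 fold change, Atp4b-cre;MycOE minus WT (x axis), of every tested gene in the transporter group and in 11 related lists (y axis), with filled points for called genes and a red bar at the median. The proton pump and potassium channels lie lowest, with a median of -3.60, and the medians of the transporters' own families lie between -0.40 and -0.04.

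Markers of several cell types moved with the transporters. Of the 8 parietal cell markers 8 were called lower, with summed levels of 12070 and 12269 CPM in WT and 366 and 400 CPM in transgenic samples. These markers are *Atp4a*, *Atp4b*, *Kcnq1*, *Kcne2*, *Kcnj15*, *Hrh2*, *Clic6* and *Esrrg*, which are described above, and none of the transporters is among them. The sums of chief cell markers (84853 and 80511 CPM in WT, 1198 and 1518 CPM in transgenic samples) and of endocrine markers (2008 and 1304 CPM, 426 and 421 CPM) were lower in both transgenic samples. Of 5 chief cell markers tested 4 were called lower. *Pgc* alone gave 80998 and 76705 CPM of their sum in WT, and *Pga5* was not called (30.6 ± 5.17 and 31.0 ± 10.3 CPM). Of 10 pancreatic acinar markers 5 were tested and 4 called lower, and *Cpa1* and *Prss2* were at 0 in all samples. Their sum was 10209 and 8946 CPM in WT and 148 and 173 CPM in the transgenic samples, of which *Pla2g1b* alone gave 9805 and 8607 CPM in WT and 18.9 and 21.4 CPM in the transgenic samples. *Cela3b*, *Pnlip* and *Ctrb1* were too low to be tested, and *Cela1* had a log2 fold change of -0.76. Markers of forestomach squamous epithelium ranged from 1736 to 6611 CPM, those of smooth muscle from 2479 to 7640 CPM and those of small intestine from 125 to 2109 CPM, with overlapping groups. Antral markers summed to 499 and 338 CPM in WT and to 115 and 150 CPM in transgenic stomachs. Mucous neck markers had 0 of 3 called in edgeR. The sums of adipocyte markers were 89.8 and 318 CPM in WT and 0.708 and 13.4 CPM in transgenic samples, and those of blood markers 237 and 73.8 CPM and 26.6 and 29.8 CPM. Skeletal muscle markers stood apart in transgenic replicate 2, at 860.3 CPM against 17.0 to 115 CPM elsewhere. Leukocyte markers summed to 37.5 and 45.9 CPM in WT and to 34.1 and 27.7 CPM in transgenic samples, and 1 of 5 tested, *Itgam*, was called lower (log2 fold change -1.76). Proliferation markers were at 263 and 254 CPM in WT and 402 and 344 CPM in transgenic samples, and 1 of 4, *Ccnb1*, was called higher (0.98). Of all tested genes, 5.08% were called lower and 5.65% higher in edgeR. The part of each cell type in the falls of the transporters was not tested.

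As deposited, the row order gave lower calls for 8 of the 9 transporters, beside 41.5% of the genes tested there. The transgenic counts beside the name *Slc4a2* were then 1 and 0, which in the character-code order belong to *Snord92*, and those beside *Slc4a4* were 8 and 11, which belong to *Snord95*. The log2 fold change of *Slc4a4* in that order was -8.65, against -0.01 after re-sorting. *Slc26a7* stood beside 826 and 846 counts, those of *Snapc4*, and had a log2 fold change of 0.15 (adjusted p = 0.615, edgeR), against -3.38 after re-sorting. For *Aqp4* and *Slc26a9* the deposited order gave -4.47 and -3.31, from the counts of *Apoc1* and *Snapin*.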

How the data were processed

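Stomach RNA in 2 WT and 2 Atp4b-cre;MycOE samples was analysed. The authors deposited raw counts per gene for each sample, without normalization. The submitters' processing notes name HISAT2 and mm10, and the counting tool, its strand setting and the annotation are not given in the sources used here. Transgenic counts were laid row by row against the names in character-code order, and WT counts were kept as deposited. The test was edgeR (version 4.0.16, R 4.3.3) with TMM scaling (filterByExpr on genotype, glmQLFit and glmQLFTest, Benjamini-Hochberg adjustment over all 17643 tested genes). The tests were also run on simulated data, with the same spread for every gene, below the common spread estimated here. That run therefore does not check the p-values of these data. Normalized CPM uses TMM library sizes. Intervals of 95% use the moderated degrees of freedom. Chi-square per degree of freedom was 28.9 for the WT pair and 97.9 for the transgenic pair, so replicates were kept apart. Alternatives were DESeq2 1.42.0, its size factors, library size, other filters, a replicate block, other fold thresholds and leaving out each sample. From each related list, called genes and the 2 most abundant uncalled genes could be named, and others were named after their values were seen. Nearest genes were limited to an edgeR average abundance (log2 of the mean CPM) of at least 5. The transporters and lists were chosen with earlier results of these data known. The values of some genes of these lists are not reported here.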

Additional observations from a re-analysis of the deposited data

How the results depend on the processing

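In the results reported above 1892 genes were called, of which 52.6% were higher, and 6 of 9 transporters. The deposited order called 18580 genes and 98 genes of the related lists (20 in the character-code order), and DESeq2 called 3234 genes. Library size without scaling factors called 3011 genes, 75.5% of them higher, moved the median log2 fold change of all genes from 0.01 to 0.23, and called 5 transporters. With an absolute log2 fold change above 1, 1113 genes and 5 transporters were called. The replicate numbers were used as a block although same-numbered samples did not deviate together (r = 0.0674), so they share only a number. The replicate block called 114 genes, 4 transporters and 7 genes of the related lists, and *Slc9a2* (adjusted p = 0.0582, edgeR) and *Slc9a4* (adjusted p = 0.0584, edgeR) were not called. Leaving out each sample gave 0 to 2470 genes, 0 to 7 transporters and 0 to 32 genes of the related lists. The counts of 0 came without WT replicate 1 and without WT replicate 2, where 2892 and 2738 genes past the fold threshold had an unadjusted p under 0.05 in edgeR. These fits leave an arm of 1 sample, which is assumed to vary like the other genotype. *Slc26a7* turned to 0.15 in the deposited order and *Slc4a4* to 0.21 with library size alone, and leaving out each sample gave -0.31 to 0.23 for *Slc4a4*. The cause was not tested where the construction of a fit does not give it. With 2 samples per genotype, and 45 and 114 counts of *Slc26a7* in the transgenic samples, precision is limited.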
